A study of Mus musculus with 12 samples.

Results

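The subunits of the NMDA and AMPA glutamate receptors were followed in the hypothalamus of mice that drank alcohol from adolescence to adulthood. The members are 10 genes, 6 NMDA subunits (Grin1, Grin2a, Grin2b, Grin2c, Grin2d and Grin3a) and 4 AMPA subunits (Gria1, Gria2, Gria3 and Gria4), of the 27827 gene names on the array. Members were taken by gene name. Every probe with 1 of these names was taken, which gave 23 probes of 41174, 11 for NMDA and 12 for AMPA subunits. No probe of another gene name carried an accession that belongs to a member in RefSeq.

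Glutamate is the main excitatory transmitter of the brain, and NMDA and AMPA receptors are the ion channels that it opens. AMPA receptors are tetramers of Gria1 to Gria4 and carry the fast current at the synapse. NMDA receptors need Grin1 together with Grin2 or Grin3 subunits and admit calcium. The Grin2 subunits set the speed and the magnesium block of the channel. Ethanol inhibits NMDA receptors, and for this reason these subunits have long been studied in alcohol research. In the hypothalamus, glutamate acts on neurons that control feeding, stress hormones and body fluid.

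All mice were male outbred ICR mice, 3 weeks old at the start, with 2 drinking tubes per cage. The alcohol mice had 1 tube with 5% or 10% alcohol beside 1 with water, and the control mice had water in both. Hypothalamic RNA was taken at the end, on day 51 by the sample labels and day 57 by the study design. The 9 control mice made 3 pools of 3, and 19 alcohol mice made 9 pools of 1 to 3. By the paper, the 3 pools with less alcohol drunk held 3 mice each, and those with more held 1 or 2. Its pool names are not tied to the sample labels. By the labels, 3 alcohol pools each were low drinkers, early high drinkers and late high drinkers, and every group held mice of the same strain, sex and age. A pool was the unit of replication, so the spread between arrays is that between pools of unequal size, some of 1 mouse, and not between mice. The drinking group was set by how much the mice chose to drink and was not assigned.

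Each pool was hybridised to 1 Agilent array with 60-base probes. A level here is the log2 signal of a probe minus the 75th percentile of its own array, so that 1 unit is a 2-fold difference and 0 is that percentile. Levels of different probes are not comparable, since probes differ in how well they bind. That percentile was a signal of 1512 to 1853, and 67.0% to 79.3% of the spots were well above background. Of 12 genes that mark the hypothalamus, 10 were well above background on all 12 arrays. The 12 arrays lay on 3 slides of 4. All water pools and low pool 1 shared slide 1, low pools 2 and 3 and early pools 1 and 2 shared slide 2, and early pool 3 and the late pools shared slide 3. Slide 1 was scanned on a different day from slides 2 and 3. With slide or scan day as a fixed block, every comparison with water therefore goes through low pool 1. Low pool 2 had the brightest dim spots, with a lower quartile of the signal of 63.2 against 22.3 to 34.0 on the other arrays.

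Sequences of 5 probes are shown so that the probes behind the results can be compared. The first pair shows 2 AMPA subunits with closely related coding sequence. The probes of Gria1 (probe 2, chr11:57102930-57102989, plus strand) and Gria3 (probe 2, chrX:39007367-39007426, plus strand) are given 5′ to 3′ in mm9 with the bases they share in capitals.
Gria1 probe 2: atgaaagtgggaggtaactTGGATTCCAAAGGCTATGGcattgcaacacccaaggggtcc
Gria3 probe 2: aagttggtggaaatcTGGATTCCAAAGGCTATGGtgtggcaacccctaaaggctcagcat
The shared run was 19 bases long, and 43 of 56 aligned bases (76.8%) were identical. In the other pairs of probes from different member genes, of 229 pairs in all, the longest shared run was 9 bases. The share of RNA of 1 of these genes that bound to the probe of the other was not measured.

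The other 3 probes are those of NMDA subunits that differed most in the late high drinkers, described further on. They are shown with runs of 5 or more G or C bases in capitals. The interval of Grin1 is chr2:25151568-25151627 and that of Grin2d is chr7:53088243-53088302, both on the minus strand. The array file gives an interval of only part of the Grin2b probe, also on the minus strand, from chr6:135679813-135679823.
Grin1 probe 1: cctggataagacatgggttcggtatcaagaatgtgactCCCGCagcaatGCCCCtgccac
Grin2d probe 1: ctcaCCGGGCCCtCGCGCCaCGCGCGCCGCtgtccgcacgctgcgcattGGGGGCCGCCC
Grin2b probe 3: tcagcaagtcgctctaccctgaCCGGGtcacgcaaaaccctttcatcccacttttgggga
G and C made up 55% of the bases in the Grin1 and Grin2b probes and 81.7% in the Grin2d probe. The median over all probes was 40% and over the member probes 41.7%. Only 7 probes on the array, this one included, had as much G and C as the Grin2d probe or more.

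The receptor subunits were measured well in this tissue. On 18 of 23 member probes the signal was well above background on all 12 arrays, and this was true of the brightest probe of 9 of the 10 genes. The exception was Grin2a, whose only probe was well above background on 9 arrays, 3 of water, 1 of low, 2 of early and 3 of late drinkers. Probe 2 of Grin3a was well above background on 0 arrays and was not tested. Probe 3 of Gria3 was above background on 1 array and had a value on 9, so it was tested only with all alcohol pools together. The other 22 and 21 probes entered the comparisons of all alcohol pools with water and of the separate groups.

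In all alcohol pools together against water, no subunit passed the test. In limma, with Benjamini-Hochberg adjustment over 32376 probes, 0 of 22 member probes had an adjusted p under 0.05, and 0 passed an unadjusted p of 0.05. Of all probes, 0.0% passed the former and 5.53% the latter. The median log2 difference of the member probes was -0.05 against 0.03 over all probes, with 15 of 22 lower and 7 higher. NMDA probes had a median of -0.08 (8 of 10 lower) and AMPA probes of -0.02 (7 of 12 lower). The smallest adjusted p of a member was 0.819. In whole tissue, a lower level may reflect fewer cells of a type or less RNA per cell, which cannot be told apart.

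Grin1, the subunit that every NMDA receptor holds, was at -0.95, -0.84 and -1.02 in the water pools. In the low drinkers it was at -1.10, -0.69 and -0.97, in the early high drinkers at -0.84, -0.94 and -1.01 and in the late high drinkers at -1.18, -1.39 and -0.99. Only late pools 1 and 2 and low pool 1 lay below all water pools. The difference of alcohol from water was -0.08 (95% interval -0.33 to 0.18), a fold of 0.949 with an interval of 0.794 to 1.134. It was -0.03 without water pool 2 or without late pool 2, -0.12 without water pool 3 or without low pool 2, and -0.16 with slide or scan day as a fixed block.

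Of the Grin2 subunits, Grin2a, the subunit of mature synapses, differed by -0.17 (95% interval -0.50 to 0.15). Grin2b, prominent early in life, differed by -0.08 on probe 1, its brightest (interval -0.31 to 0.14). Grin2c differed by -0.01 (-0.18 to 0.15), with water pools at 1.46, 1.48 and 1.47 and alcohol pools from 1.25 to 1.64 around a median of 1.44. Grin2d, which makes slow channels that magnesium blocks weakly, differed by -0.15 (-0.45 to 0.15), by -0.09 without water pool 2 and by -0.36 with slide or scan day as a fixed block. Grin3a, which lowers the calcium entry of the channel, differed by -0.03 (-0.17 to 0.12). All of these intervals included 0. The widest of them still allowed a Grin2a level 0.709 times that of water.

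The AMPA probes varied less than the NMDA probes, with a median SE of 0.07 against 0.13. Gria1 was at 4.40, 4.30 and 4.20 in the water pools and between 4.27 and 4.48 in the alcohol pools, with a median of 4.42, and 8 of 9 alcohol pools lay above the water mean. Its difference was 0.09 (95% interval -0.04 to 0.22), and it was 0.14 without water pool 1, 0.04 without water pool 3 and -0.03 with slide or scan day as a fixed block. Gria2, which makes AMPA channels impermeable to calcium once its RNA is edited, was at 4.21, 4.19 and 4.27 in water and from 4.10 to 4.27 with a median of 4.18 in alcohol. Its difference of -0.04 had the narrowest interval of the brightest probes, -0.14 to 0.06, or a fold of 0.906 to 1.044, and it was -0.02 without water pool 3. Gria3 differed by 0.07 (-0.06 to 0.21), by 0.13 without water pool 3 and 0.04 without water pool 2, and Gria4 by -0.003 (-0.12 to 0.11). The pools of water and alcohol overlapped on all 10 brightest probes.

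An exact permutation test of each brightest probe over all 220 ways of drawing 3 of 12 arrays, two-sided, gave p between 0.145 for Gria1 and 0.982 for Gria4. The same exact test on 21 member probes with a value on every array gave 1 below 0.05, where 1.05 are due by chance. This was probe 2 of Gria2, with an exact permutation p = 0.045, all 9 alcohol pools below the water mean and a difference of -0.25 (adjusted p = 0.82).

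**Figure D1:**
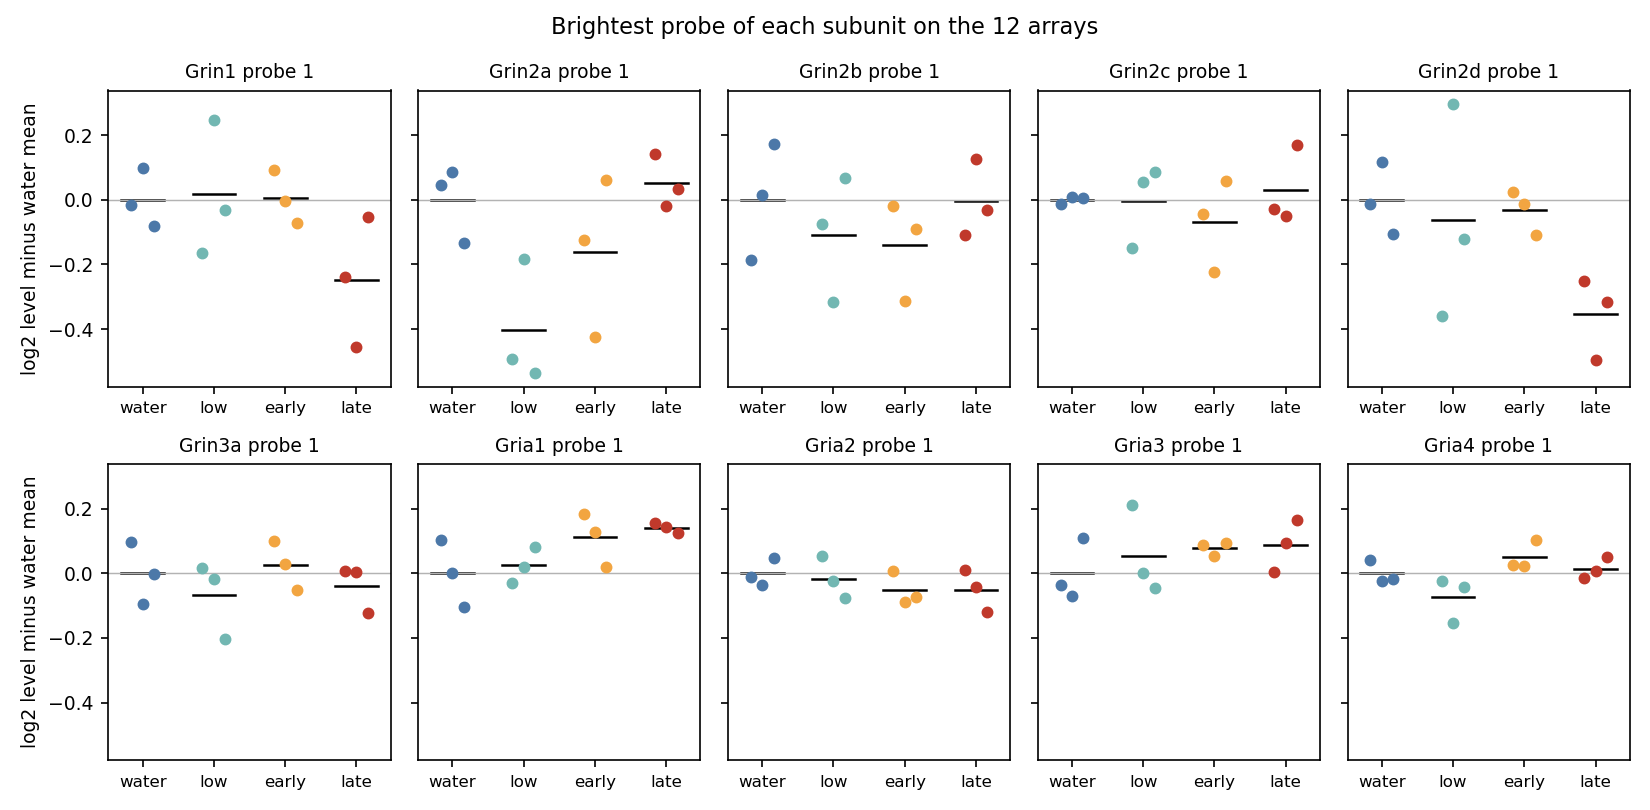
Log2 level of the brightest probe of each of the 10 subunits on the 12 arrays, minus the mean of the 3 water pools. Points are pools in label order from left to right and bars are group means. Gria1 to Gria4 lay near the water mean in every group, Grin2a was lowest in the low drinkers and Grin1 and Grin2d were lowest in the late high drinkers.

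Divided by drinking pattern, the low drinkers differed from water only in Grin2a at an unadjusted p of 0.05, 1 of 21 member probes against 9.08% of all probes, and none passed the adjusted threshold (0.218% of all probes). Grin2a was at -4.83, -4.79 and -5.01 in the water pools and at -5.37, -5.06 and -5.42 in the low pools. The groups did not overlap. The difference was -0.40 (SE 0.13, adjusted p = 0.514), a fold of 0.756 with a 95% interval of 0.614 to 0.930. The Grin2a probe was dim, and 2 of the 3 low values were not well above background. Over all probes with a mean level between -9 and -5, the median difference in this comparison was 0.63, and over those between -5 and -4 it was 0.28. The mean level of Grin2a, -5.01, lay at the border of these classes. Within slide 1, low pool 1 lay 0.49 below the mean of the water pools. With normexp in place of the scanner's background correction the difference was -0.05, and with quantile normalization it was -1.11 (adjusted p = 0.474).

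In the high drinkers Grin2a was at -5.01, -5.30 and -4.82 in the early and at -4.74, -4.90 and -4.85 in the late pools. The 6 high-drinker pools were 0.35 higher than the 3 low pools (SE 0.12, adjusted p = 0.252), and 5 of the 6 lay above every low pool. With normexp this difference was -0.02, with quantile normalization 0.96 (adjusted p = 0.2) and with slide as a fixed block 0.08. Within slide 2, early pools 1 and 2 lay 0.08 above low pools 2 and 3. The low drinkers' arrays were divided over slides 1 and 2, and the high drinkers' over slides 2 and 3.

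Gria4, which forms fast-closing AMPA channels, was lower in the low drinkers than in water on probe 1 without overlap (0.49, 0.36 and 0.48 against 0.56, 0.50 and 0.50), but by only -0.07 (SE 0.05, adjusted p = 0.749). Grin2a and Gria4 were the 2 of 21 member probes that lay wholly below water, against 2.14% of all probes. The 6 high pools, at 0.54, 0.54, 0.62, 0.50, 0.53 and 0.57, were all above the 3 low pools, by 0.11 (SE 0.05, adjusted p = 0.34; 0.23 without scaling between arrays and 0.07 without low pool 2). Such a separation upward occurred in 1 of 21 member probes and in 1.65% of all probes. The mean of the 4 Gria4 probes gave -0.02 for the same comparison. Of the 21 member probes, 3 passed an unadjusted p of 0.05 in high against low drinkers (Grin2a, probe 1 of Gria4 and probe 2 of Gria2), against 14.7% of all probes, and none passed the adjusted threshold (0.0221% of all probes).

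In the early high drinkers, 1 of 21 member probes passed an unadjusted p of 0.05, against 4.7% of all probes. It was probe 4 of Gria4, at -1.17, -1.11 and -0.92 against -0.83, -0.92 and -0.71 in water. The highest early pool was just below the lowest water pool. The difference was -0.25 (SE 0.10, adjusted p = 0.89), and -0.11 with scan day as a fixed block. The late high drinkers, at -0.96, -1.18 and -0.90, had a difference of -0.20 on this probe, and probes 1 to 3 of the gene differed from water by -0.14 to 0.09 in the early high drinkers. On 3 of 21 member probes, probes 3 and 4 of Gria4 and probe 2 of Gria2, the early pools lay wholly below water, against 5.52% of all probes.

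The late high drinkers had more differing members than the other groups, but so did all probes. Of 21 member probes, 3 passed an unadjusted p of 0.05, all lower than in water, against 15.9% of all probes in either direction and 8.94% lower. None passed the adjusted threshold, as was true of all 31622 probes (0.0%). The members were probe 2 of Gria2, probe 3 of Grin2b and the probe of Grin2d.

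Gria2 probe 2 was at -2.76, -2.79 and -2.69 in water, at -2.77, -2.75 and -2.87 in the low, at -2.81, -2.90 and -2.98 in the early and at -3.53, -3.50 and -2.87 in the late pools. Late pools 1 and 2 lay far below all others, and late pool 3 lay with the low and early pools. The late drinkers were -0.55 from water (SE 0.15, adjusted p = 0.145), a fold of 0.681 with a 95% interval of 0.539 to 0.861. Without late pool 3 the difference was -0.77 with an adjusted p of 0.0022 in limma. It was the only case in which a member was called against water under any alternative. In that fit 442 of 31564 probes passed the adjusted threshold, against 0 of 31622 in the main fit. Without late pools 1 and 2, the lowest ones, the difference of Gria2 probe 2 was -0.12, a value of 1 late pool that is given with no test. Against the early high drinkers it was -0.40 (SE 0.15, adjusted p = 0.351), and against the low drinkers the high drinkers were at -0.30 (adjusted p = 0.33). Without late pool 3 these differences were -0.62 (adjusted p = 0.0096) and -0.41 (adjusted p = 0.030). In those fits 107 and 126 of 31564 probes passed the adjusted threshold, against 0 and 7 of 31622 in the main fit. Without late pools 1 and 2 the differences of Gria2 probe 2 were 0.03 and -0.09. Without scaling between arrays they were -0.25 and -0.17, and with quantile normalization the latter was -0.145. Within slide 3 the late pools lay 0.32 below early pool 3.

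The other Gria2 probes did not show this. Probe 1, the brightest, was at 4.23, 4.18 and 4.10 in the late pools and probe 3 at -3.05, -3.10 and -3.10. Late pools 1 and 2 lay inside the water range on probe 3 and inside or just below it on probe 1. The 3 probes lie at chr3:80492452-80492511, chr3:80509817-80509876 and chr3:80489422-80489481 in mm9 on the minus strand, and probe 2 lies upstream of the others along the gene. Over 12 arrays, which share slides and pools, the Pearson correlation between the Gria2 probes lay between -0.15 and 0.09. The difference on probe 2 was thus not shared by the other probes of the gene.

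**Figure D2:**
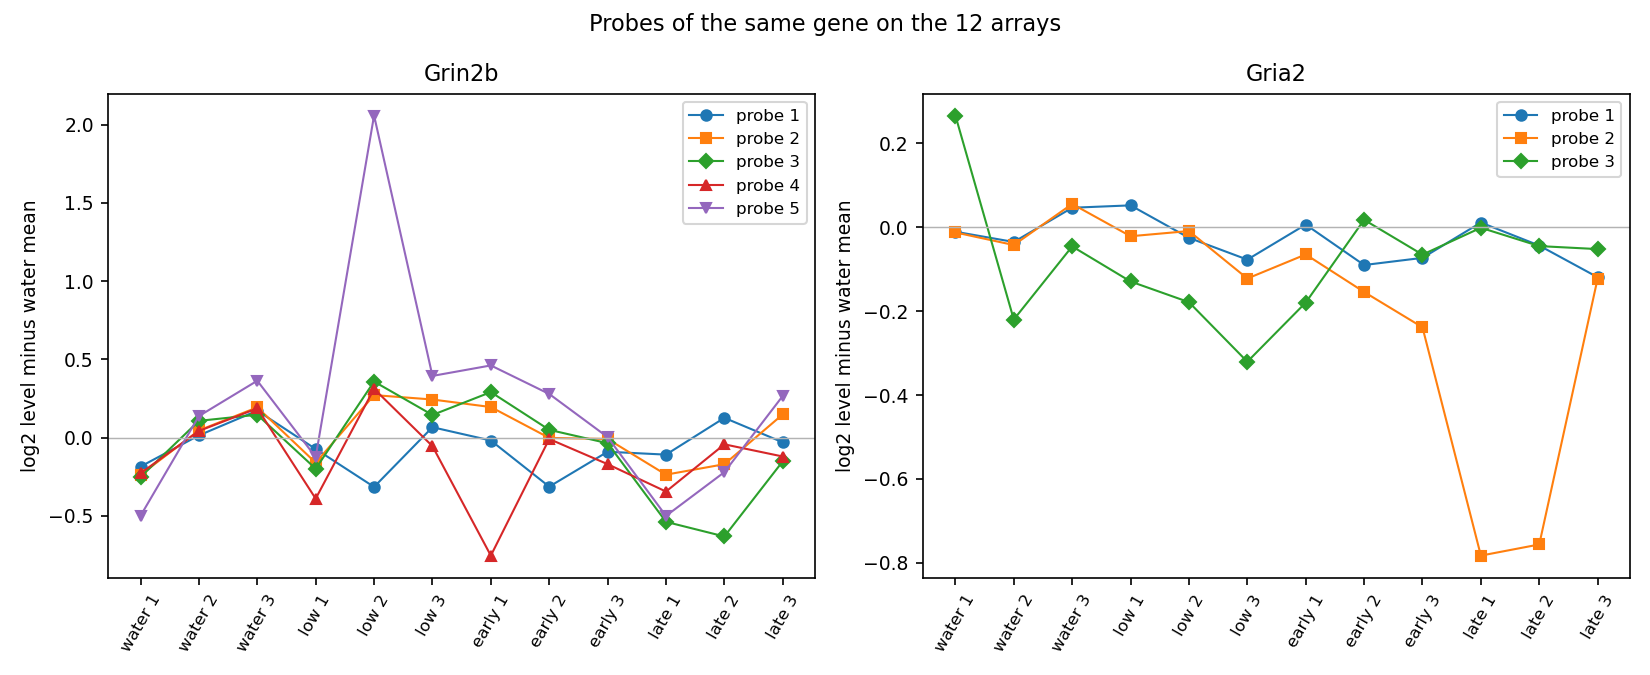
Log2 level of the 5 Grin2b probes (left) and the 3 Gria2 probes (right) on each of the 12 arrays, minus each probe's mean over the water pools; the scales of the panels differ. Probe 2 of Gria2 was lowest in late pools 1 and 2, and probes 2, 3 and 5 of Grin2b moved together while probe 1 did not.

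Grin2b probe 3 was at -4.48, -4.12 and -4.08 in water and at -4.77, -4.86 and -4.38 in the late pools. Late pools 1 and 2 were below all water pools and late pool 3 was not. The difference was -0.44 (SE 0.18, adjusted p = 0.27). With scan day or slide as a fixed block, where only low pool 1 meets water, it was -0.89 or -0.69. Without late pools 1 and 2 it was -0.15. Against the early pools, at -3.94, -4.18 and -4.27, it was -0.54 without overlap (SE 0.18, adjusted p = 0.325), and -0.25 without late pools 1 and 2. Probe 1 of Grin2b was at 0.91, 1.14 and 0.98 in the late pools, all inside the water range of 0.83 to 1.19. Over the 12 arrays, probe 3 went with probe 2 (r = 0.85) and probe 5 (r = 0.75). It went little with probe 4 (r = 0.20) and not with probe 1 (r = -0.18). In the late drinkers probes 2, 4 and 5 differed from water by -0.09, -0.17 and -0.15, with intervals that included 0.

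Grin2d was at -3.13, -3.0 and -3.22 in water, at -3.48, -2.82 and -3.24 in the low, at -3.09, -3.13 and -3.23 in the early and at -3.37, -3.61 and -3.43 in the late pools. All late pools lay below all water and all early pools, while the low pools spread over nearly the whole range. The difference from water was -0.35 (SE 0.15, adjusted p = 0.278), a fold of 0.782 with a 95% interval of 0.623 to 0.982. With scan day or slide as a fixed block, where only low pool 1 meets water, it was -0.80 or -0.69. Without scaling between arrays it was -0.23. Against the early drinkers it was -0.32 (adjusted p = 0.409). Within slide 3 the late pools lay 0.24 below early pool 3, and within slide 1 low pool 1 lay 0.36 below the water pools.

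Gria1 on probe 1 was the only member whose late pools all lay above water, at 4.45, 4.44 and 4.42 against 4.40, 4.30 and 4.20. The separation occurred in 1 of 21 member probes and 12.4% of all probes, and the difference was 0.14 (SE 0.07, adjusted p = 0.347). Probe 2 of Gria1, which shares its run of bases with Gria3, differed by -0.08 and lay at 2.51, 2.51 and 2.48 in the late pools, below all early pools (2.73, 2.72 and 2.53). The lower separation from water held for Grin2d and probe 2 of Gria2, 2 of 21 member probes against 13.4% of all probes. The median difference of the member probes in late drinkers was -0.04 against 0.0048 over all probes. In late against early high drinkers, 2 of 21 member probes (Grin2b probe 3 and Gria2 probe 2) passed an unadjusted p of 0.05, against 12.4% of all probes, and none the adjusted threshold (0.0%). The late pools lay wholly below the early pools on 3 of 21 member probes (Grin2b probe 3, Grin2d and Gria1 probe 2), against 13.2% of all probes.

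**Figure D3:**
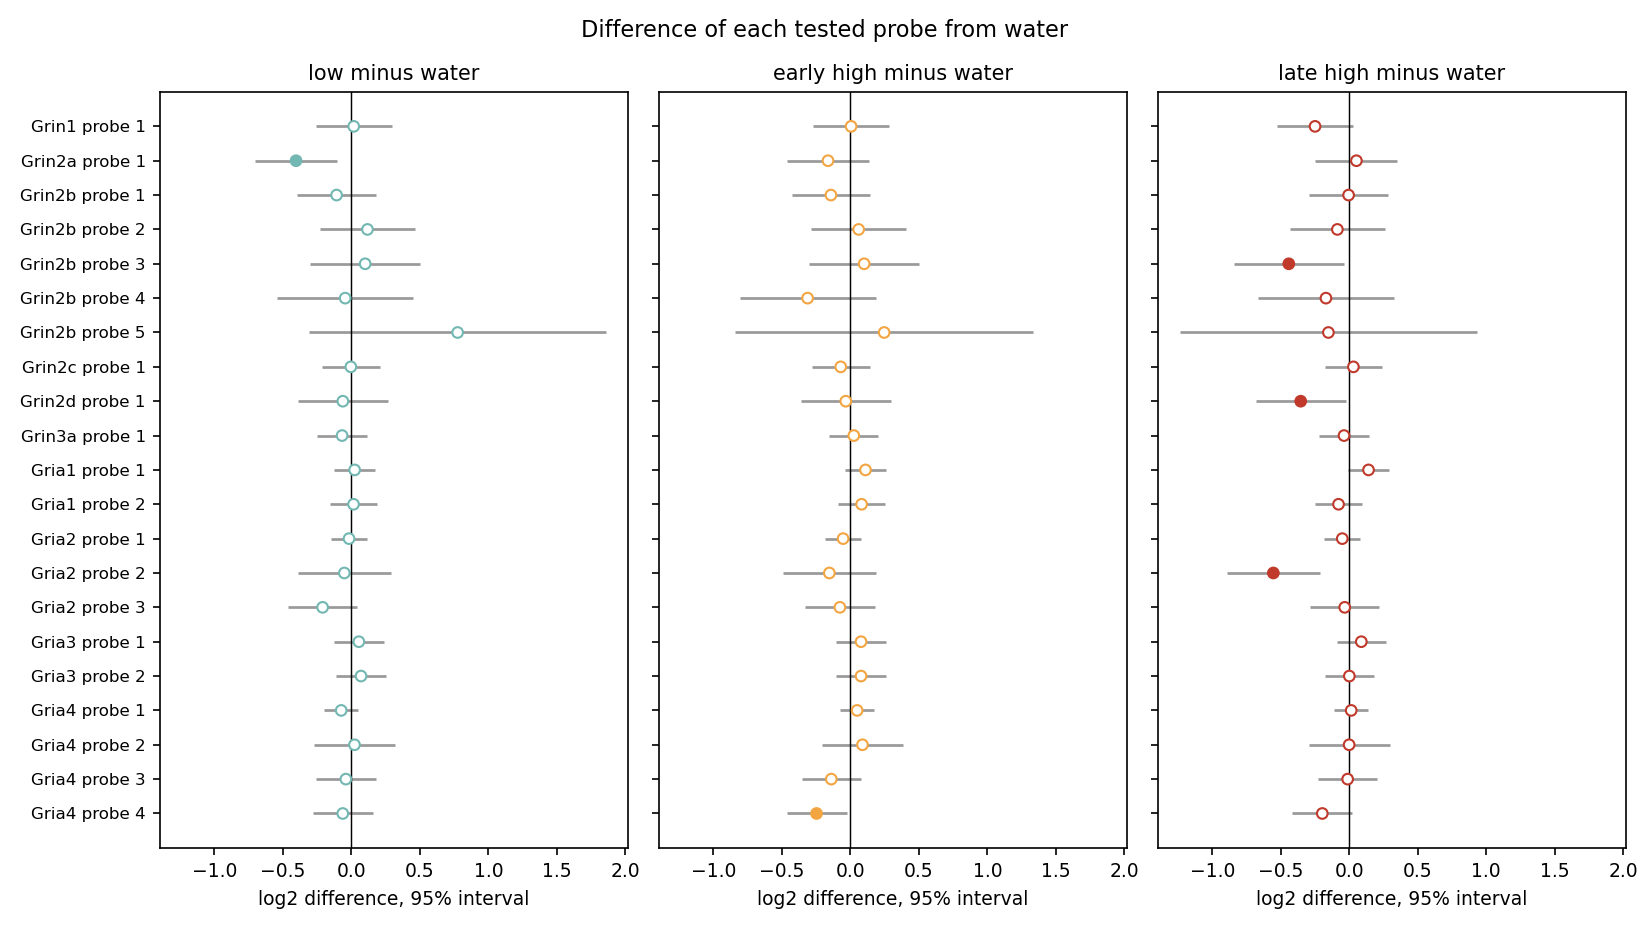
Log2 difference of the low, early high and late high drinkers from water on the 21 member probes tested in all groups, with 95% intervals from limma. Filled points passed an unadjusted p of 0.05, which was 1 probe in the low, 1 in the early and 3 in the late drinkers, and none passed after adjustment over all probes.

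Grin1 and Grin2d varied together over the arrays. Their correlation over 12 arrays was r = 0.92, the highest of the 45 pairs of brightest probes, of which the next was Grin3a with Gria2 (r = 0.55) and the lowest Grin2c with Grin3a (r = -0.60). Both were highest in low pool 2, and both were lowest in late pool 2. Grin1 differed between late drinkers and water by -0.25 (SE 0.12, adjusted p = 0.361) and between late and early drinkers by -0.26 (adjusted p = 0.432). The arrays share slides, and low pool 2 is the one with the brightest dim spots.

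**Figure D4:**
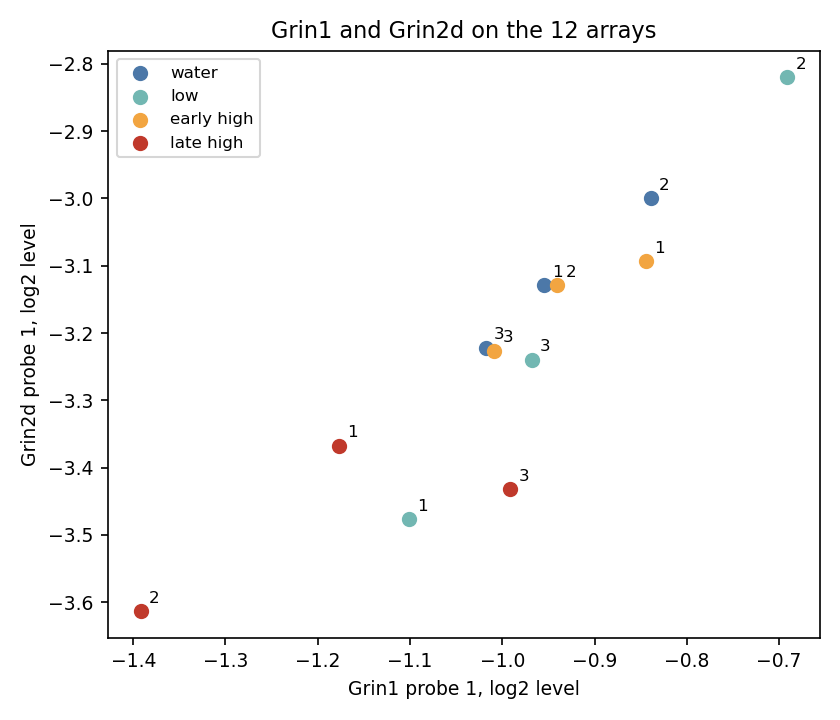
Log2 level of the Grin2d probe against that of the Grin1 probe, each point 1 array, coloured by group and numbered by pool. The points ran from late pool 2 at the lower left (-1.39 and -3.61) to low pool 2 at the upper right (-0.69 and -2.82).

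Likeness to other probes was measured over the arrays. Of 26021 probes compared over the 12 arrays, 44 had r over 0.9 with Grin1. The probe most like Grin2d was that of Srcin1 (r = 0.94, 13 probes over 0.9) and the one most like Grin2c was that of Gabrd, the delta subunit of the GABA-A receptor (r = 0.96, 17 probes). Gria1 was most like Sap18 (r = 0.95), Gria4 like Cenpk (r = 0.91), Grin2a like Npas1 (r = 0.91), Grin2b like Wipf3 (r = 0.90), Grin3a like Cdc42 (r = 0.90), Gria2 like Get1 (r = 0.88) and Gria3 like Gphn, which anchors inhibitory receptors (r = 0.87). These values are descriptions of 12 arrays that share slides.

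Late pools 1 and 2 were the 2 lowest of the 12 arrays for Grin1, Grin2b probe 3 and Gria2 probe 2, 3 of 21 member probes, and for 9.67% of 29521 probes with a value on every array. Differences also varied with base composition, and not only in the late arrays. Against water, probes with at most 35% G and C had medians of -0.003 in low, -0.004 in early and 0.05 in late drinkers. Between 55% and 65% the medians were 0.11, 0.07 and -0.04. In late against early drinkers the median over all probes was 0.05 for probes with at most 35% G and C, -0.03 between 35% and 45%, -0.12 between 45% and 55%, -0.13 between 55% and 65% and -0.22 above 65%. The Grin2d probe at 81.7% was at -0.32 in this comparison and the Grin1 probe at 55% was at -0.26. Probe 2 of Gria2 had 35% G and C and was at -0.40, where its class had a median of 0.05 and a lower decile of -0.21. The part of base composition in these differences was not tested.

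**Figure D5:**
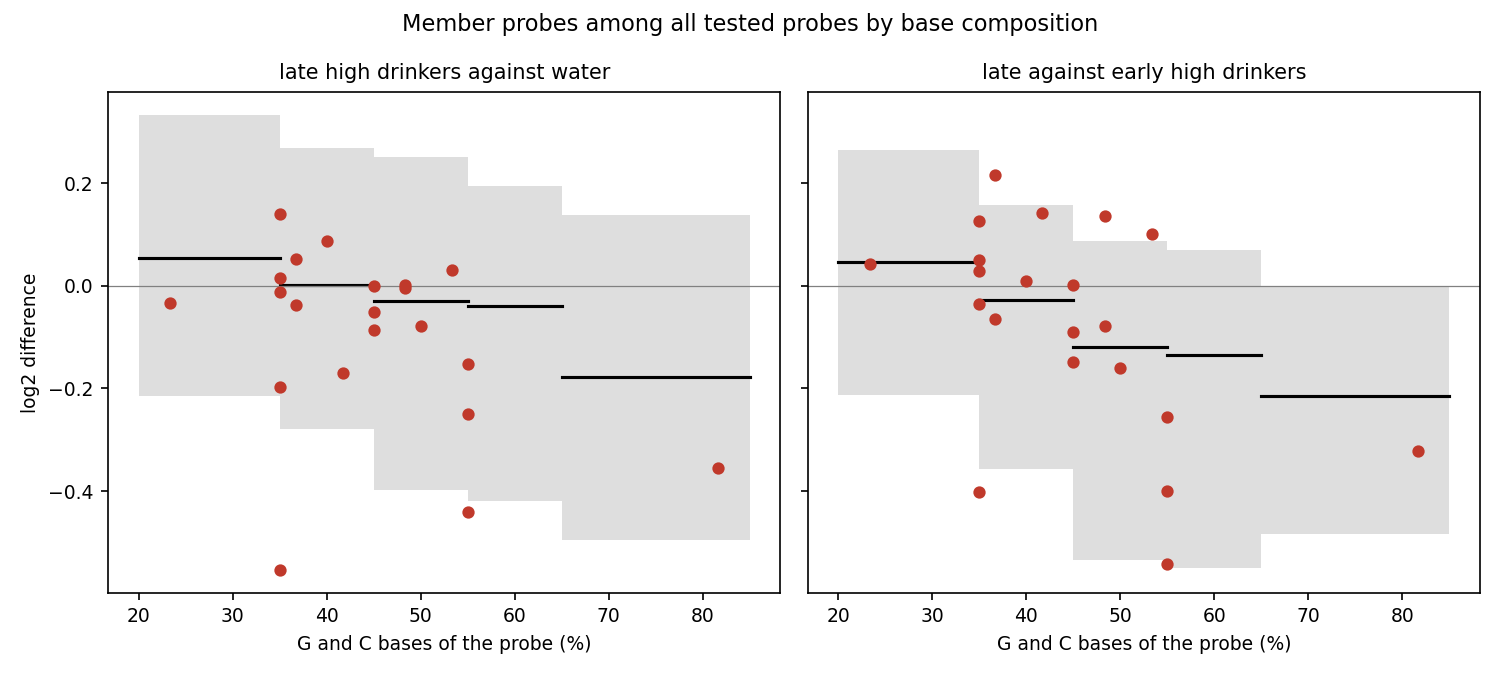
Log2 difference of late high drinkers from water (left) and from early high drinkers (right) against the share of G and C in the probe. Red points are the 21 member probes, black lines the medians of all tested probes in each class and grey bands their lower to upper deciles; the medians went down with G and C, from 0.05 to -0.22 in the right panel.

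Markers of other cell types and neighbouring regions were measured beside these results. Levels of the markers of a list were summed on the linear scale and put back on log2. For 5 neuronal markers, all well above background on every array, this sum lay between 6.97 and 7.04 in water. In the late drinkers it lay between 7.07 and 7.11, without overlap. For 5 astrocyte markers, all measured as well, it lay between 5.176 and 5.359 in water. In the late drinkers the astrocyte sum lay between 5.355 and 5.486, with a slight overlap. Markers of the cerebral cortex and hippocampus were between -0.72 and -0.60 in water and between -0.90 and -0.69 in the late drinkers, and 3 of 5 were well above background on every array. All 5 markers of the striatum were well above background, with a sum between 2.04 and 2.16 in water and between 1.81 and 1.94 in the late drinkers, without overlap. The late pools also lay apart from water in the 3 blood markers, all well above background (6.91 to 7.21 in water and 6.22 to 6.67 in the late drinkers), in the 5 thalamus markers, all well above background (3.72 to 3.89 and 3.93 to 4.61), and in the choroid plexus markers, 4 of 5 well above background on every array (1.33 to 1.73 and 1.15 to 1.32). Early pool 3, on the slide of the late pools, lay inside the late range for striatum (1.84), thalamus (4.20) and choroid plexus (1.24). It lay outside that range for neurons (7.03) and blood (7.04). Among all single probes, the late pools lay wholly above water in 12.4% and wholly below in 13.4%. The sums for the hypothalamus, astrocytes, oligodendrocytes, their precursors and microglia overlapped between water and late drinkers. Anterior pituitary markers, 3 of 5 well above background on every array, varied most, from 1.70 to 3.63 in water and from -0.13 to 1.75 in the early drinkers. The part of these markers in the results was not tested.

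The genes that work with the receptors were given by a list of 60 genes tested (59 in the separate groups), each on its brightest probe. None passed the adjusted threshold in any comparison. Against water, 5 of 60 passed an unadjusted p of 0.05 in all alcohol pools together (4 higher, 1 lower), 2 of 59 in the low drinkers, 2 of 59 in the early high drinkers and 12 of 59 in the late high drinkers (6 higher, 6 lower). The shares over all probes were 5.53%, 9.08%, 4.7% and 15.9%. The median difference of the list in all alcohol pools was 0.02 against 0.03 over all probes. The 2 genes in the low drinkers were Grid1 and Dao, and those in the early high drinkers were Nsf and Dao, all higher than water.

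Among other ionotropic subunits, 0 of 8 passed in all alcohol pools together and 1 of 8, Grid1, in the low drinkers. Grid1, a delta-type subunit of the glutamate receptor family, had a mean of -2.99 in water, -2.33 in low, -2.63 in early and -2.88 in late drinkers. It was 0.66 higher in the low drinkers than in water (SE 0.19, adjusted p = 0.399) and -0.43 from the low in the high drinkers (adjusted p = 0.289), both past an unadjusted p of 0.05. Dao, the enzyme that degrades D-serine, was dim, well above background on 4 arrays, and had no value on some arrays of water, low and late drinkers. Its mean was -6.98 in water, -4.34 in low, -5.76 in early and -6.33 in late drinkers, with adjusted p of 0.15 in the low and 0.89 in the early drinkers against water. Both genes were named after their values were seen.

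The 5 genes in all alcohol pools were Nsf, Dlgap2, Nptx1, Slc17a7 and Neto2. Nsf, the ATPase that binds Gria2 and keeps AMPA receptors at the synapse, was 0.18 higher (SE 0.07, adjusted p = 0.819). Its mean was 4.08 in water, 4.18 in low, 4.30 in early and 4.30 in late drinkers. Dlgap2, a scaffold of the postsynaptic density, was 0.22 higher (adjusted p = 0.819). Neto2, an auxiliary subunit of kainate receptors, was lower by -0.17 (adjusted p = 0.819), with means of 1.03, 0.95, 0.88 and 0.74 in water, low, early and late. The probes of Nptx1, which clusters AMPA receptors, and Slc17a7, a vesicular glutamate transporter, were dim. Nptx1 was well above background on 4 arrays with means of -5.77 in water and -5.29, -5.36 and -5.26 in the alcohol groups, and Slc17a7 on 5 arrays and none of water.

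In the late high drinkers against water, the genes that passed an unadjusted p of 0.05 were 5 of 14 scaffolds (3 higher, 2 lower), 2 of 9 AMPA auxiliary subunits (both lower), 2 of 2 kainate auxiliary subunits (both lower), 2 of 7 genes of AMPA receptor trafficking (both higher) and 1 of 8 kinases, phosphatases and editing enzymes (higher), against 15.9% of all probes (8.94% lower). None passed among the other ionotropic subunits, the coagonist enzymes, the transporters and the glutamate enzymes. Of the 9 AMPA auxiliary subunits, 6 were above water, with a median difference of 0.03. The 2 that passed were Cacng7 and Cacng8, which bind AMPA receptors and slow their closing, and they were named after their values were seen. Cacng8 had a mean of -3.86 in water, -3.67 in low, -3.89 in early and -4.89 in late drinkers, where its pools lay between -5.15 and -4.38. Its difference from water was -1.03 (SE 0.27, adjusted p = 0.136). Cacng7 was lower by -0.22 (adjusted p = 0.27), with means of -1.59 in water and -1.81 in late drinkers. Neither passed in the low or the early drinkers against water.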

How the data were processed

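The authors deposited the scanner output of 12 Agilent 1-color arrays (Feature Extraction 10.5.1.1 per the file headers), whose signal intensity is linear and corrected for background, with no scaling from array to array. Their value table, used as an alternative, held the same signal intensity by probe. The depth of an array cannot be counted, and the number of arrays limits the precision. Positions are those of mm9 in the files; exon annotation of that build was not used here. RefSeq (GRCm38.p6) was used for names alone, with 25097 probes matched by accession.

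Log2 intensities were taken minus the 75th percentile of 43379 non-control spots. Non-uniform outlier spots, and those whose signal was under 2 times its error, were left out before spots of the same probe were averaged. The test took probes that kept a value on over 50% of the arrays in each group (32376 probes with 2 groups, 31622 with 4). The groups were compared in R 4.3.3 with limma 3.58.1 (lmFit and eBayes) with Benjamini-Hochberg adjustment over all probes. Exact permutation tests were run with scipy 1.17.1 and figures were drawn with matplotlib 3.10.9. On simulated data with no slide effect, limma called 169 of 200 probes moved by 1 on the log2 scale in alcohol against water (32376 probes), with 13 false calls. In low drinkers against water (31622 probes) it called 144, with 15 false calls. Smaller moves were not simulated.

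Every probe of a member was used, and the brightest by mean level stood for the gene. The members and gene lists were chosen with earlier results of these data known. Genes of the wider list were named at an unadjusted p of 0.05 in alcohol against water, and Grid1, Dao, Cacng7 and Cacng8 after their values in other comparisons were seen. Alternatives covered background correction, scaling, source of the values, filter, slide, scan day, replicate number, test, choice of probe and each array left out, and 1 was added after seeing the data (late pools 1 and 2 left out together, where the remaining late pool is assumed to vary like the other groups). Listed genes without a probe by that name, such as Shisa9 and Nptxr, were not tested. The probe most like Grin1 is not reported here.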

Additional observations from a re-analysis of the deposited data

Results flagged for a closer look

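Grin2b probe 5 stood far from the other alcohol arrays in low pool 2, at -3.19 where the next highest was -4.79. The gap was 0.624 of the range over the 9 alcohol arrays. Of 22 member probes looked at in this way 1 was picked out, and about 1.1 are due by chance. Low pool 2 was also the array with the brightest dim spots (lower quartile of the signal 63.2). The part of this in the value was not tested.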

How the results depend on the processing

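No member probe passed the adjusted threshold under any alternative but 1. Over all probes the calls varied more. Without low pool 1, 2482 of 30662 probes passed in low drinkers against water and 2255 in high against low drinkers. In the main fit these were 69 and 7 of 31622. Leaving out each array in turn gave 0 to 1 member probes in late high drinkers against water, high against low drinkers and late against early high drinkers. The 1 was Gria2 probe 2 without late pool 3, and the other comparisons gave 0. In the same order, 442, 126 and 107 of 31564 probes passed without late pool 3, against 0, 7 and 0 of 31622 in the main fit. With the replicate number as a block, 0 member probes passed, and 0, 1, 2, 4, 2 and 2 passed an unadjusted p of 0.05 in alcohol, low, early and late drinkers against water, high against low and late against early drinkers. Over all probes, 1751 of 32376 passed the unadjusted threshold in alcohol against water. In the other comparisons 3086, 1435, 4787, 4710 and 3719 of 31622 passed it. The block changed no adjusted call of a member probe. Of 18 pairs with the same number 3 correlated over 0.1 (range -0.0893 to 0.183), so the numbers were not taken as pairs. Differences of alcohol from water that were near 0 changed sign. With slide or scan day as a fixed block, where only low pool 1 meets water, Grin3a was at 0.0168, Gria1 at -0.0298 and Gria2 at 0.0519. Gria4 was at 0.0077 with normexp and 0.0014 without scaling, Gria3 at -0.0249 as the mean of its probes and Grin1 at 0.0022 without late pools 1 and 2. In high against low drinkers, Grin2a was at -0.0183 with normexp and Gria4 at -0.0167 as the mean of its probes, and in late against early drinkers Gria2 probe 2 was at 0.0302 without late pools 1 and 2. Leaving out each array in turn moved Grin2b from -0.1773 to 0.0014, Grin2c from -0.0374 to 0.0118, Grin3a from -0.0744 to 0.0224 and Gria4 from -0.0164 to 0.018. The cause was not tested. The number of member probes at an unadjusted p of 0.05 was also counted, leaving aside the fit with 1 late pool. It ranged from 0 to 2 in alcohol against water. In low, early and late drinkers against water it was 0 to 4, 0 to 3 and 1 to 4. In high against low drinkers it was 0 to 5 and in late against early drinkers 0 to 4. Over all 26022 to 41174 probes tested the ranges, in the same order, were 543 to 2919, 946 to 6258, 837 to 3121, 2457 to 5615, 2740 to 8323 and 1515 to 5221. The 5 members came with normexp, where 6564 of 31622 probes passed. Dim probes such as Grin2a are limited by background, and 3 arrays a group limit every comparison.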
